A study of Mus musculus with 21 samples.

Results

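The genes described here are 33 mouse genes of glucose uptake, glycolysis, lactate handling and glycogen turnover. They were chosen by name with earlier results of these data known. They were followed in the left ventricle over 6 groups of genotype, injection and number of injection days. Each gene was read from a probe set that the platform's annotation gives to that gene alone, and where a gene had several such sets the one with the highest mean log2 value over all 21 arrays was taken. Of the 33 genes, 29 had such a probe set and 28 reached a log2 value of 5 on at least 3 arrays, among 11384 of 19937 genes that did so in the whole data set. Aldoc, an aldolase isoform, was dim everywhere (log2 4.00 to 4.74) and was not tested. Gapdh was carried only by 11 probe sets shared with other genes, and Gpi1, Pfkfb1 and Eno1 had no probe set named for them in the annotation used here, so none of these 4 genes was measured.

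Total RNA of left ventricular myocardium was hybridised, 1 sample per array, to Affymetrix arrays, and the values are RMA log2 expression values. The mice were 9 to 13 weeks old, were injected intraperitoneally on 1 day or on each of 4 days, those on tamoxifen at 40 mg/kg, and were killed 4 days after the last dose. Mice carrying Tg(αMHC-MerCreMer), called MCM below, had been given tamoxifen on 4 days (MCM 4 TAM, 3 arrays) or control injections on 4 days (MCM 4 ctrl, 3 arrays), or tamoxifen on 1 day (MCM 1 TAM, 3 arrays) or a control injection on 1 day (MCM 1 ctrl, 3 arrays). Wild-type mice had been given tamoxifen on 4 days (WT 4 TAM, 3 arrays) or control injections on 4 days (WT 4 ctrl, 6 arrays). Each group of 3 held 1 male and 2 females, and WT 4 ctrl held 3 of each. The transgene puts a tamoxifen-activated Cre recombinase under the α-myosin heavy chain promoter, which is active in cardiomyocytes; the labels name no floxed allele and do not say what the control injection contained.

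Glycolysis splits glucose into pyruvate in the cytosol, and its committed step is catalysed by phosphofructokinase, whose activity is raised by the fructose 2,6-bisphosphate that 6-phosphofructo-2-kinase makes. Glucose enters cardiomyocytes through GLUT1 and the insulin-responsive GLUT4, and it can be stored as glycogen, which the heart draws on at high workload. The adult heart takes most of its energy from fatty acids, and many glycolytic enzymes exist as an isoform of striated muscle and as isoforms of wider expression.

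Cardiomyocyte genes were bright on every array: the mean log2 value over 14 cardiomyocyte markers lay between 11.64 and 12.11 on the MCM 4 TAM arrays and between 12.18 and 12.25 on the other 18. The MCM 4 TAM arrays differed among themselves more than those of any other group. Over the 28 tested genes, the residual variance within that group was 0.267, against 0.0121 to 0.0221 within the other 5 groups, and over all tested genes it was 0.106, against 0.0153 to 0.0221. The MCM 4 TAM array of replicate 3 stood farthest out, and values with and without it are given below. The labels do not say that replicates are separate animals, so the p-values measure only the spread between these samples, and in a whole-tissue sample fewer cells of a type cannot be told apart from less RNA per cell.

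The first question was how the genes of glucose use differed after 4 days of tamoxifen in MCM ventricles. Between MCM 4 TAM and MCM 4 ctrl, 14 of the 28 tested genes differed at an adjusted p under 0.05, against 23.3% of all tested genes. Slc16a3, Pgam1, Pfkp, Pgk1 and Ldha rose (5 genes, against 13.9% of all tested genes called higher), and Pfkfb2, Pfkm, Ldhb, Ugp2, Hk2, Pygb, Gbe1, Gsk3b and Pfkl fell (9 genes, against 9.41% called lower). The changes ran from a fall by 1.11 on the log2 scale (Pfkfb2) to a rise of 1.11 (Slc16a3), with a median of -0.09 over the 28 genes and 0.01 over all tested genes. In 13 of the 28 genes the MCM 4 TAM and MCM 4 ctrl arrays did not overlap, which was so for 27.9% of all tested genes. When only these 6 arrays were fitted, limma called 0 of the 28 genes (0.158% of all tested genes), and when each group was given its own variance it called 3, Hk2, Pfkm and Slc16a3 (8.42% of all).

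**Figure D1:**
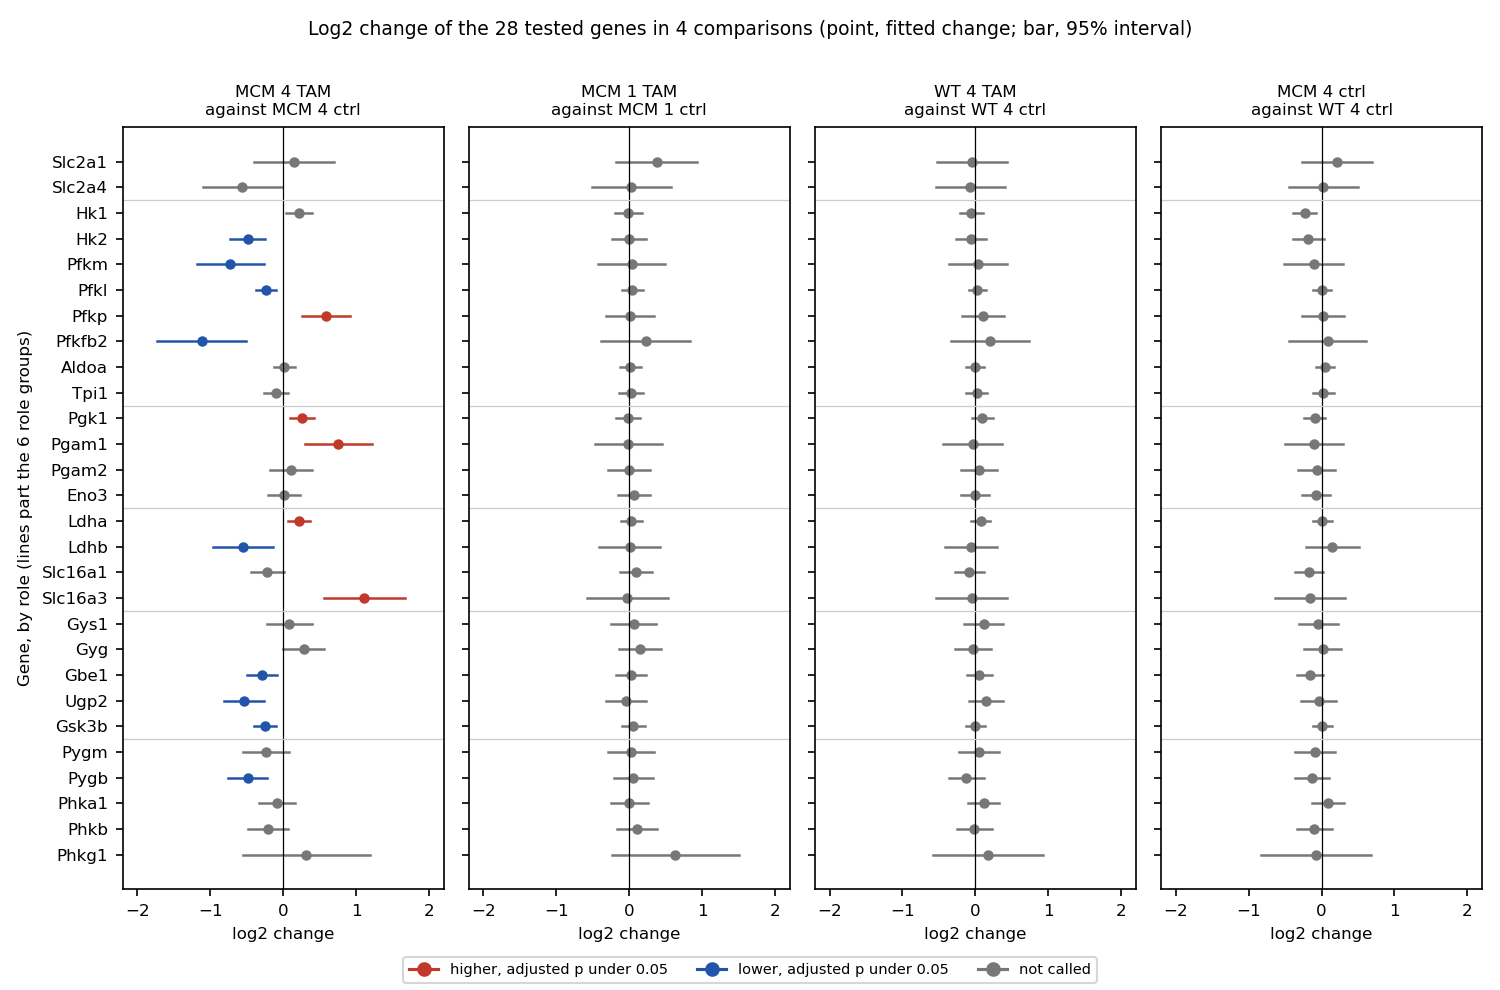
Fitted log2 change of each of the 28 tested genes (rows, in 6 blocks by role) in 4 comparisons, with the 95% interval as a bar; red and blue mark genes called higher and lower. All 14 called genes lie in the first panel, and in the panels of MCM 1 TAM and WT 4 TAM no gene was called.

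The stretches of 250 bases before the transcription start of 4 of the called genes are printed here. These stretches were picked because they hold a short motif found in some genes that rose and in some that fell. They are RefSeq promoter entries of build GRCm38.p6, read 5′ to 3′ along the gene's strand, and the capitals mark ACGTG or its reverse complement CACGT, the core of the hypoxia response element; where both overlap they form the palindrome CACGTG, an E box. Slc16a3 lies at chr11:120948817-120949066 on the plus strand, Pgk1 at chrX:106186850-106187099 on the plus strand, the first of 3 entries of Pfkfb2 at chr1:130715822-130716071 on the minus strand and the first of 2 entries of Ugp2 at chr11:21371268-21371517 on the minus strand.
Slc16a3: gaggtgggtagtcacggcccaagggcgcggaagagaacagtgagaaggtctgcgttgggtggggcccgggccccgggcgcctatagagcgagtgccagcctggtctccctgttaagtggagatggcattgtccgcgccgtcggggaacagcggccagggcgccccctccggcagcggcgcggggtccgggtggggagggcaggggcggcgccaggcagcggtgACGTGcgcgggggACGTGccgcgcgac
Pgk1: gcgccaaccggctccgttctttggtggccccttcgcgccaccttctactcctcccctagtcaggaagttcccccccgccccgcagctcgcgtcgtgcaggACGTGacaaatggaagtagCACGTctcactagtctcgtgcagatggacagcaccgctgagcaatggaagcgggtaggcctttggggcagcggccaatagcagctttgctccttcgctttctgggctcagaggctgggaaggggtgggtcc
Pfkfb2: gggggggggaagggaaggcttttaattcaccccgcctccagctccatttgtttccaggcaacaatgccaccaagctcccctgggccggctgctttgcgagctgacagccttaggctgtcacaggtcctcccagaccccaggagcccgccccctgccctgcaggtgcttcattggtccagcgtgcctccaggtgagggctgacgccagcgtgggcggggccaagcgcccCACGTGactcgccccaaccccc
Ugp2: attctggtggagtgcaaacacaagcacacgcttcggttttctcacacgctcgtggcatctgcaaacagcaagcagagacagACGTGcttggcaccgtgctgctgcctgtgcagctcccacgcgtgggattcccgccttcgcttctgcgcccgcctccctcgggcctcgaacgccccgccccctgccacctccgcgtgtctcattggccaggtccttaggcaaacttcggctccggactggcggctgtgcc

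Either strand of ACGTG was found in at least one entry of 13 of the 32 member genes with a promoter entry (40.6%), against 18.5% of the 27025 genes with an entry. It was found in 4 of the 5 genes that rose in MCM 4 TAM ventricles and in 5 of the 9 that fell. Of the 13 tested genes with an entry that were not called, 4 held it. The second entry of Pfkfb2 and the second entry of Ugp2, not printed above, held no match. The palindrome CACGTG, every match of which is also a match of ACGTG, was found in 4 of the 32 genes (12.5%), against 6.86% of all genes. AAGGTCA, a motif bound by nuclear receptors such as the estrogen-related receptors and searched with its reverse complement TGACCTT, was found in 2 of 32 (6.25%, against 4.7% of all genes) and in 0 of the 14 called genes. Genes with several entries had more bases searched, and a match of letters is a description and not evidence of binding.

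Neither glucose transporter passed the test after 4 days of tamoxifen. Slc2a4, which encodes GLUT4, read 10.41, 10.03 and 8.71 log2 on the MCM 4 TAM arrays of replicates 1, 2 and 3, against 10.20, 10.23 and 10.39 on the MCM 4 ctrl arrays. The array of replicate 3 was far below all controls while the first lay above them, so the groups overlapped and the log2 change was -0.56 (SE 0.26, adjusted p = 0.124). Slc2a1, which encodes GLUT1, read 7.05, 7.40 and 8.60 on the MCM 4 TAM arrays, against 7.35, 7.42 and 7.83 on the MCM 4 ctrl arrays. Here replicate 3 was the highest array of all 21 and the first was below the controls, with a log2 change of 0.15 (SE 0.26, adjusted p = 0.709). On replicate 3 the insulin-responsive carrier was low and the basal carrier high, and on the other 2 arrays of the group the difference farthest from 0 was -0.48 log2, that of Slc2a1 on replicate 1.

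Of the 8 tested genes of hexose phosphorylation and upper glycolysis, 1 rose, 4 fell and 3 were not called. Among all tested genes 13.9% were called higher and 9.41% lower. Hk2, the insulin-regulated hexokinase of muscle, read 9.16, 9.83 and 9.86 on the MCM 4 TAM arrays, against 10.13, 10.05 and 10.13 on the MCM 4 ctrl arrays. All 3 tamoxifen arrays were below every control, with replicate 1 the lowest, and Hk2 fell by 0.49 on the log2 scale (means 9.61 ± 0.40 and 10.10 ± 0.05, SD, n = 3 each, SE of the change 0.11, limma adjusted p = 0.00552). Hk1, the hexokinase of most tissues, showed a log2 change of 0.22 (SE 0.09) that did not pass the test (adjusted p = 0.0758). The probe set of Hk1 taken by the rule carries no RefSeq transcript and none of the 12 named probe sets next to it in the table is on the chromosome of Hk1, so its identity is uncertain. A dimmer set with a RefSeq transcript of Hk1 gave 8.93, 9.01 and 9.12 in MCM 4 TAM, against 8.76, 8.79 and 8.79 in MCM 4 ctrl. These groups did not overlap, and the log2 change of 0.24 (SE 0.09) missed the threshold as well (adjusted p = 0.0556).

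The 3 phosphofructokinase genes did not move together. Pfkm, the muscle form, read 11.06, 11.15 and 9.77 on the MCM 4 TAM arrays, against 11.37, 11.32 and 11.46 on the MCM 4 ctrl arrays. It was below the controls on all 3 arrays and fell by 0.72 (means 10.66 ± 0.77 and 11.39 ± 0.07, SE 0.22, adjusted p = 0.0236), and without replicate 3 it fell by 0.27 (SE 0.06, adjusted p = 0.00676). Pfkl, the liver form, read 8.70, 8.51 and 8.46 in MCM 4 TAM, against 8.83, 8.78 and 8.77 in MCM 4 ctrl. The groups did not overlap and Pfkl fell by 0.24 (means 8.56 ± 0.13 and 8.79 ± 0.03, SE 0.07, adjusted p = 0.0179). Pfkp, the platelet form, went the other way at 8.36, 8.28 and 8.90 in MCM 4 TAM, against 7.79, 8.15 and 7.85 in MCM 4 ctrl. Its lowest tamoxifen array was above its highest control, and Pfkp rose by 0.58 (means 8.52 ± 0.34 and 7.93 ± 0.19, SE 0.16, adjusted p = 0.0134). Without replicate 3 the changes of Pfkl (-0.19, adjusted p = 0.0632) and Pfkp (0.38, adjusted p = 0.0752) kept their direction and were not called.

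The largest fall among the tested genes was that of Pfkfb2, the heart form of the bifunctional enzyme that makes and breaks down fructose 2,6-bisphosphate. Its values were 8.39, 8.03 and 6.90 in MCM 4 TAM, against 8.94, 8.77 and 8.95 in MCM 4 ctrl. All 3 tamoxifen arrays lay below the controls and replicate 3 was the lowest by more than 1 log2 unit, with a log2 change of -1.11 (means 7.77 ± 0.77 and 8.89 ± 0.10, SE 0.29, adjusted p = 0.0111), a level 0.462 of the control level. Without replicate 3 the change was -0.66 (adjusted p = 0.0545). Aldoa, the muscle aldolase, and Tpi1, triose phosphate isomerase, were not called, with log2 changes of 0.02 (SE 0.07) and -0.10 (SE 0.08).

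Lower glycolysis had 2 called genes of 4 tested, both higher, against 13.9% of all tested genes called higher. Pgk1, phosphoglycerate kinase, read 10.60, 10.71 and 10.94 in MCM 4 TAM, against 10.42, 10.53 and 10.52 in MCM 4 ctrl. Every tamoxifen array was above every control and Pgk1 rose by 0.26 (means 10.75 ± 0.18 and 10.49 ± 0.06, SE 0.08, adjusted p = 0.0240). Pgam1, the phosphoglycerate mutase of most tissues, read 7.98, 7.94 and 9.04 in MCM 4 TAM, against 7.56, 7.75 and 7.40 in MCM 4 ctrl. It rose by 0.76 with no overlap (means 8.32 ± 0.62 and 7.57 ± 0.18, SE 0.22, adjusted p = 0.0197), although none of the 15 named probe sets next to its own in the table is on the chromosome of Pgam1, which leaves the identity of the set uncertain. Without replicate 3 the rises were 0.17 for Pgk1 (adjusted p = 0.114) and 0.39 for Pgam1 (adjusted p = 0.0939), short of the threshold.

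The muscle isoforms of this stage depended on replicate 3 in the opposite way. Pgam2, the muscle phosphoglycerate mutase, read 11.16, 11.02 and 10.24 in MCM 4 TAM, against 10.78, 10.66 and 10.66 in MCM 4 ctrl, and Eno3, the muscle enolase, read 11.80, 11.84 and 11.28, against 11.66, 11.54 and 11.70. On replicates 1 and 2 both genes were above all controls and on replicate 3 both were below all controls. With all arrays the log2 changes were 0.11 (SE 0.14) for Pgam2 and 0.01 (SE 0.11) for Eno3, neither called. Without replicate 3 both passed the test, at 0.37 (adjusted p = 0.000696) and 0.20 (adjusted p = 0.0343).

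Among the genes of lactate, 2 of 4 rose, 1 fell and 1 was not called. Over all tested genes 13.9% were called higher and 9.41% lower. Slc16a3 encodes MCT4, the carrier that exports lactate from strongly glycolytic cells. It read 5.93, 5.92 and 7.55 in MCM 4 TAM, against 5.39, 5.22 and 5.45 in MCM 4 ctrl. Replicates 1 and 2 were about 0.57 log2 above the control mean and replicate 3 was 2.197 above it, with no overlap between the groups. The log2 change was 1.11 (means 6.47 ± 0.94 and 5.36 ± 0.12, SE 0.27, adjusted p = 0.00665), a 2.16-fold rise, and without replicate 3 it was 0.57 (SE 0.10, adjusted p = 0.000685). Its probe set was the dimmest of the 28, with a mean log2 value of 5.56 over all arrays.

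Ldha, the lactate dehydrogenase subunit that predominates in glycolytic muscle, read 11.65, 11.45 and 11.51 in MCM 4 TAM, against 11.33, 11.25 and 11.36 in MCM 4 ctrl. The groups did not overlap and Ldha rose by 0.22 (means 11.53 ± 0.10 and 11.32 ± 0.06, SE 0.07, adjusted p = 0.0301), with a change of 0.23 without replicate 3. Ldhb, the subunit that predominates in the heart, read 11.07, 10.92 and 9.79 in MCM 4 TAM, against 11.31, 11.02 and 11.12 in MCM 4 ctrl. It was the called gene whose groups overlapped, since replicate 1 lay within the controls. The fall by 0.56 (means 10.60 ± 0.70 and 11.15 ± 0.14, SE 0.20, adjusted p = 0.0480) was -0.17 without replicate 3 (adjusted p = 0.191). A second Ldhb probe set gave -0.44 (adjusted p = 0.0849). None of the named probe sets next to this second set is on the chromosome of Ldhb, so the identity of the second set is uncertain. Slc16a1, which encodes the lactate carrier MCT1, was not called, at -0.21 (SE 0.11, adjusted p = 0.148).

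Of the 5 genes listed under glycogen synthesis, which include the inhibitory kinase Gsk3b, 3 fell and none rose, Gsk3b being among the 3. The share of all tested genes called lower was 9.41%. Ugp2 makes UDP-glucose, the glucosyl donor of glycogen synthesis. It read 8.33, 8.12 and 7.81 in MCM 4 TAM, against 8.57, 8.69 and 8.61 in MCM 4 ctrl, all 3 tamoxifen arrays below the controls. It fell by 0.54 (means 8.09 ± 0.26 and 8.62 ± 0.06, SE 0.13, adjusted p = 0.00676), and without replicate 3 by 0.42 (adjusted p = 0.0339). Gbe1, the glycogen branching enzyme, read 8.39, 8.35 and 7.95 in MCM 4 TAM, against 8.47, 8.49 and 8.60 in MCM 4 ctrl. The groups did not overlap, and its fall by 0.29 (means 8.23 ± 0.25 and 8.52 ± 0.07, SE 0.10, adjusted p = 0.0367) was -0.14 without replicate 3 (adjusted p = 0.197). Gsk3b, the kinase that phosphorylates and inhibits glycogen synthase, read 7.69, 7.90 and 7.94 in MCM 4 TAM, against 8.11, 8.13 and 8.03 in MCM 4 ctrl. Its lowest array was replicate 1, and Gsk3b fell by 0.25 without overlap (means 7.85 ± 0.13 and 8.09 ± 0.05, SE 0.07, adjusted p = 0.0216).

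The other genes of synthesis were not called. Gys1, the muscle glycogen synthase, read 9.63, 9.20 and 8.62 in MCM 4 TAM, against 9.13, 9.13 and 8.93 in MCM 4 ctrl, so that replicates 1 and 2 were above the controls and replicate 3 below them. The log2 change was 0.09 (SE 0.15, adjusted p = 0.700) with all arrays and 0.34 (adjusted p = 0.0246) without replicate 3. Gyg, glycogenin, which primes new glycogen particles, showed a log2 change of 0.28 (SE 0.14, adjusted p = 0.142).

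Glycogen breakdown had 1 called gene of 5, against 23.3% of all tested genes called. Pygb, the brain isoform of glycogen phosphorylase, which the heart also expresses, read 10.68, 10.61 and 10.004 in MCM 4 TAM, against 10.99, 10.80 and 10.96 in MCM 4 ctrl. All 3 tamoxifen arrays were below the controls and Pygb fell by 0.49 (means 10.43 ± 0.37 and 10.92 ± 0.10, SE 0.13, adjusted p = 0.0124), or by 0.27 without replicate 3 (adjusted p = 0.0484). Pygm, the muscle isoform, read 11.81, 11.68 and 10.85 in MCM 4 TAM, against 11.72, 11.61 and 11.72 in MCM 4 ctrl. Its replicate 1 was above the controls and its replicate 3 far below them, and the log2 change of -0.23 (SE 0.15) was not called (adjusted p = 0.271).

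Phosphorylase kinase, which activates glycogen phosphorylase, has regulatory subunits encoded by Phka1 and Phkb and a catalytic subunit encoded in muscle by Phkg1. Phkg1 had the widest spread of the 28 genes, at 7.57, 7.65 and 5.19 in MCM 4 TAM, against 6.41, 6.65 and 6.38 in MCM 4 ctrl. Replicates 1 and 2 were 1.09 and 1.16 log2 above the control mean and replicate 3 differed from it by -1.30, and the log2 change over the 3 arrays was 0.32 (SE 0.41, adjusted p = 0.611). Without replicate 3 it was 1.11 (SE 0.21, adjusted p = 0.00138). Phka1 (-0.08, SE 0.12) and Phkb (-0.21, SE 0.13) were not called.

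**Figure D2:**
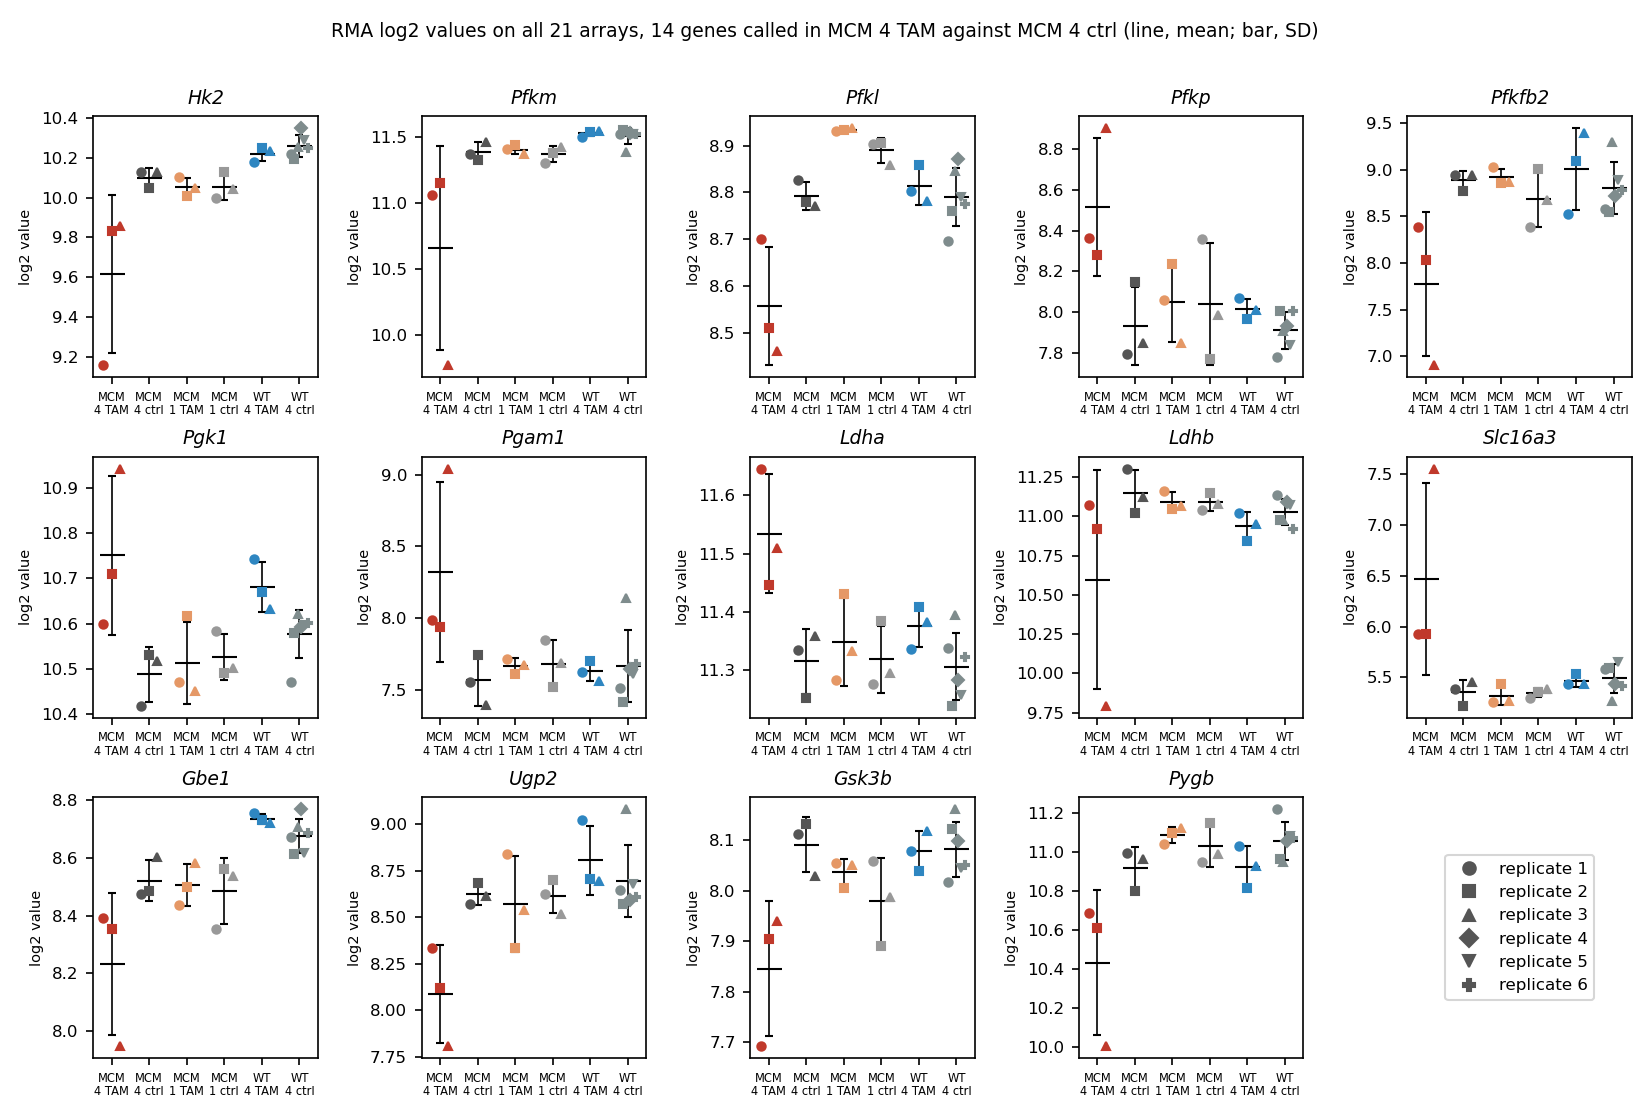
RMA log2 values on each of the 21 arrays for the 14 genes called between MCM 4 TAM and MCM 4 ctrl; each symbol is an array, horizontal lines are group means and bars the SD, and the vertical axes differ between genes and do not start at 0. In all genes except Ldhb the 3 red symbols of MCM 4 TAM lie outside the range of MCM 4 ctrl, and in 11 of the 14 genes replicate 3 (triangle) is the farthest from the control mean.

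Isoforms of striated muscle and their counterparts of wider expression were set side by side, from lists drawn up with earlier results of these data known. Of 9 striated-muscle forms (Slc2a4, Hk2, Pfkm, Pgam2, Eno3, Pygm, Phka1, Phkg1 and Ldhb), 3 fell and none rose, with a median log2 change of -0.23. The list holds Ldhb as the form of heart muscle and leaves out Aldoa and Gys1, which were not called (0.02 and 0.09), while Ldha, which skeletal muscle also expresses strongly, stands among the counterparts. Of 8 tested counterparts (Slc2a1, Hk1, Pfkl, Pfkp, Pgam1, Pygb, Ldha and Slc16a3), 4 rose and 2 fell, with a median of 0.22. In this comparison 13.9% of all tested genes were called higher and 9.41% lower. The largest rise of the counterparts was that of Slc16a3 (1.11). No carrier of its family is among the 9 muscle forms, and Slc16a1 is in neither list, so its rise is not a comparison of isoforms. The shift of the muscle-form median lay in replicate 3, where all 9 muscle forms were below every MCM 4 ctrl array. Their median difference from the control mean was -0.83 on that array, and 40.8% of all tested genes were below every control there. Hk2 and Pfkm were below every control on replicates 1 and 2 as well, and Hk2 was lowest on replicate 1 (-0.94). On replicates 1 and 2 the median differences of the muscle forms were 0.13 and 0.00, and 2 and 4 of the 9 were below all controls and 5 and 3 were above all of them. Over all tested genes, 27.96% and 29.6% were below every control on these 2 arrays and 44.8% and 33.05% were above. Among the counterparts, Hk1 and Pgam1 were read from probe sets of uncertain identity. The counterpart forms had median differences of 0.22, 0.13 and 0.69 on replicates 1, 2 and 3. On these arrays 4, 4 and 6 of the 8 were above all controls. The matching shares over all tested genes were 44.8%, 33.05% and 39.0%.

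**Figure D3:**
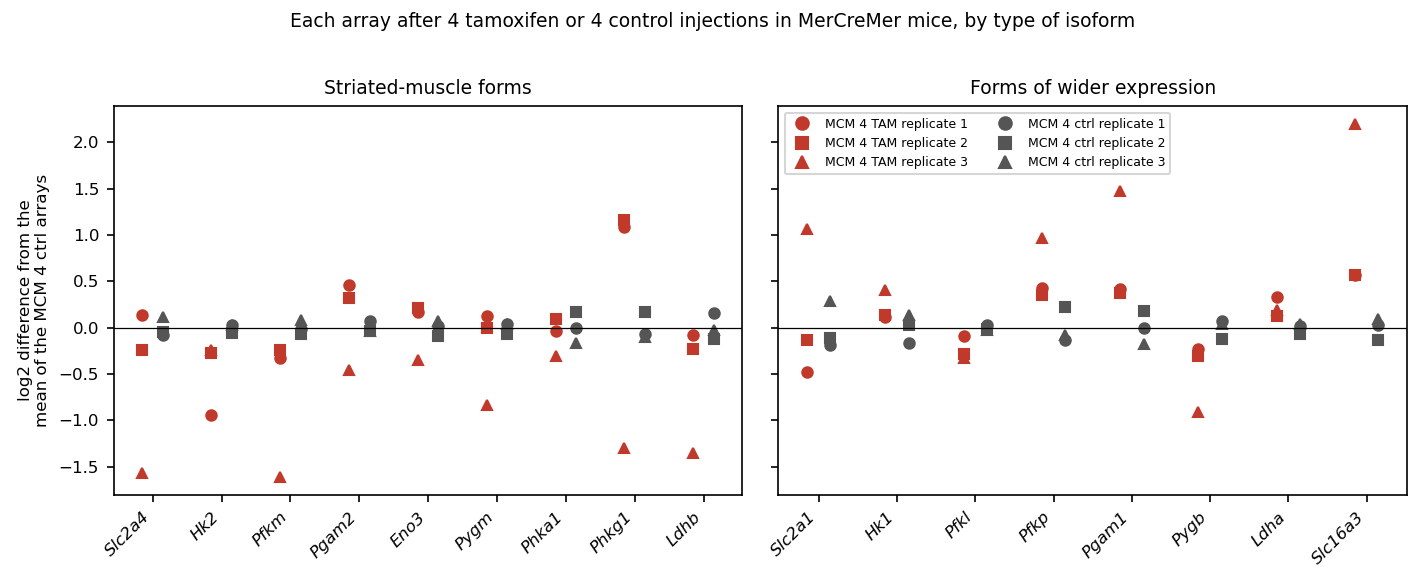
Log2 difference of each array from the mean of the MCM 4 ctrl arrays. On the left are the 9 genes listed as striated-muscle forms, and on the right the 8 listed as counterparts, Slc16a3 among them. Red symbols are MCM 4 TAM and grey symbols MCM 4 ctrl, with a shape for each replicate. On replicate 3 of MCM 4 TAM (red triangles) all 9 muscle forms lie below 0, while on replicates 1 and 2 Pgam2, Eno3 and Phkg1 lie above it.

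Markers of other cells moved in the same comparison, in which 23.3% of all tested genes were called. All 16 tested macrophage and monocyte markers were higher in MCM 4 TAM than in MCM 4 ctrl (median log2 change 1.02), and the mean log2 value over the 17 markers with a probe set ran from 6.41 to 7.82 on the MCM 4 TAM arrays, against 6.001 to 6.07 on the MCM 4 ctrl arrays. Their median difference from the controls was 0.90, 0.33 and 1.85 on replicates 1, 2 and 3. The array with the lowest median of the muscle isoforms thus also had the highest median of the macrophage markers. Fibroblast markers had median differences of -0.02, 0.09 and 1.13 on these arrays and none of 10 passed the test. The median over 14 cardiomyocyte markers was -0.06, 0.02 and -0.26, with Ttn, Ryr2 and Pln lower and 11 not called. Endothelial markers fell in 3 of 11 cases, with median differences of 0.07, -0.30 and -0.61. Of 10 skeletal muscle markers 4 were bright enough to test, of which Tnnt3 and Acta1 were higher and the other 2 were not called, with log2 changes between -0.18 and 1.84. Lcn2, the 1 of 6 neutrophil markers that could be tested, was higher by 2.40. Of 3 tested atrial markers the myosin light chain Myl7 was lower (log2 change -3.77), while Myl4 (-2.11) and Nppa (1.02) were not called. The MCM 4 ctrl arrays were themselves high in these genes: the median log2 change of the 3 was 2.59 between MCM 4 ctrl and WT 4 ctrl and 2.11 between MCM 4 ctrl and MCM 1 ctrl, with 2 of 3 at an unadjusted p under 0.05 and none called in either comparison. The part of atrial tissue in the values of the glucose genes was not tested. Smooth muscle and pericyte markers had 1 called gene of 6, and red blood cell and adipocyte markers had 0 of 2 and 0 of 1. The part of cell composition in the isoform values was not tested.

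Leaving out 1 array at a time showed which calls rested on which library. Slc16a3, Ugp2, Pygb and Hk2 were called in all 6 fits that left out 1 of the arrays compared, and Pfkfb2 in 5 of 6, all but the one without MCM 4 TAM replicate 3. Without MCM 4 TAM replicate 3, 11 genes were called, 6 of them higher (16.5% of all tested genes were called), and 7 of these 11 were among the 14. Calls numbered 16 and 15 without MCM 4 TAM replicates 1 and 2, where 29.9% and 33.8% of all tested genes were called. They numbered 5, 9 and 8 without MCM 4 ctrl replicates 1, 2 and 3, where 15.05%, 16.3% and 14.5% of all tested genes were called. Pfkm was lost without each MCM 4 ctrl array (adjusted p from 0.0513 to 0.0790), and Pgk1, Pfkp and Pgam1 were lost without MCM 4 ctrl replicate 1, MCM 4 ctrl replicate 3 or MCM 4 TAM replicate 3. Ldha and Gsk3b were lost without MCM 4 ctrl replicates 1 and 2 or MCM 4 TAM replicate 1, Gbe1 and Ldhb without any MCM 4 ctrl array or MCM 4 TAM replicate 3, and Pfkl without MCM 4 ctrl replicate 1 or MCM 4 TAM replicate 3. No called gene changed direction in these fits.

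A single day of tamoxifen left the same genes without a call. Between MCM 1 TAM and MCM 1 ctrl, limma called 0 of 28 genes and 0 had an unadjusted p under 0.05, against 0.00878% of all tested genes called. The 14 genes called after 4 days had log2 changes between -0.04 (Ugp2) and 0.23 (Pfkfb2) after 1 day, and 13 of them were within 0.2 of 0. The largest value among the 28 was that of Phkg1, at 6.93, 6.59 and 7.03 in MCM 1 TAM, against 6.26, 5.80 and 6.58 in MCM 1 ctrl. These groups only just did not overlap, and the log2 change of 0.63 had a 95% interval from -0.24 to 1.499 (adjusted p = 1.00). Pfkl and Gyg also had groups that did not overlap, as did 10.4% of all tested genes.

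The same 4 days of tamoxifen in wild-type mice gave no call either. Between WT 4 TAM and WT 4 ctrl, limma called 0 of 28 genes with 0 at an unadjusted p under 0.05, and 0% of all tested genes were called. Changes of the 28 genes lay between -0.12 (Pygb) and 0.20 (Pfkfb2), and 27 were within 0.2 of 0. Slc16a3 read 5.43, 5.53 and 5.43 in WT 4 TAM, against a lowest value of 5.27, a median of 5.51 and a highest of 5.65 in WT 4 ctrl. Only Pgk1 had groups that did not overlap, with a log2 change of 0.10 (SE 0.07), against 3.42% of all tested genes. Bounds of the 95% intervals over the 28 genes reached -0.58 and 0.93, the widest being that of Phkg1.

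Whether the response to 4 days of tamoxifen differed between genotypes was tested as the difference of the 2 effects, MCM minus WT. It was called for 2 of 28 genes, both lower, against 7.98% of all tested genes called, 4.45% higher and 3.53% lower, and 4 genes higher and 8 lower had an unadjusted p under 0.05. Pfkfb2 read 8.39, 8.03 and 6.90 in MCM 4 TAM, against 8.94, 8.77 and 8.95 in MCM 4 ctrl. In wild-type ventricles it read 8.53, 9.09 and 9.40 in WT 4 TAM, against 8.54, 8.75 and 9.30 as the lowest, median and highest of WT 4 ctrl. In MCM it lay below its controls on all 3 arrays, and in WT 1 array lay just below the controls, 1 within and 1 above them. The difference of the effects was -1.32 log2 (SE 0.38, 95% interval -2.12 to -0.51, adjusted p = 0.0422).

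Ugp2 read 8.33, 8.12 and 7.81 in MCM 4 TAM, against 8.57, 8.69 and 8.61 in MCM 4 ctrl. In wild-type ventricles it read 9.02, 8.70 and 8.69 in WT 4 TAM, against 8.57, 8.63 and 9.08 as the lowest, median and highest of WT 4 ctrl. The difference of the effects was -0.68 (SE 0.17, 95% interval -1.04 to -0.32, adjusted p = 0.0210). The difference for Slc16a3 was 1.16 (SE 0.35) and just missed the threshold (adjusted p = 0.0501). For Hk2 it was -0.43 (adjusted p = 0.0855), for Pfkm -0.75 (adjusted p = 0.115) and for Pgam1 0.79 (adjusted p = 0.0986). Both calls depended on single arrays and on the setting. That of Ugp2 was lost without MCM 4 ctrl replicate 2, MCM 4 ctrl replicate 3 or WT 4 TAM replicate 1 (adjusted p from 0.0540 to 0.0685). That of Pfkfb2 held in 4 of 15 such fits, those without MCM 4 TAM replicate 1 or 2, WT 4 TAM replicate 1 or WT 4 ctrl replicate 3. Counts of called genes ran from 0 without MCM 4 ctrl replicate 2 or 3 (5.56% and 4.77% of all tested genes called) to 8 without MCM 4 TAM replicate 1 (15.1%), with 7 and 6 without MCM 4 TAM replicates 2 and 3 (19.7% and 8.12%). They were 1 without MCM 4 ctrl replicate 1, without any WT 4 TAM array, or without any WT 4 ctrl array except replicate 3, which left 2, and in these 10 fits 4.43% to 7.53% of all tested genes were called. Among 12 other settings the call of Pfkfb2 held in 7 and that of Ugp2 in 10. With a variance for each group neither was called (adjusted p = 0.0862 for Pfkfb2 and 0.0988 for Ugp2), whereas Pfkm (-0.74, adjusted p = 0.0445) and Slc16a3 (1.15, adjusted p = 0.0189) were.

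The difference between 4 and 1 days of tamoxifen in MCM mice was tested in the same way. Of 28 genes limma called 0, against 5.78% of all tested genes (2.78% higher and 3% lower), while 4 genes higher and 8 lower had an unadjusted p under 0.05. The smallest p was that of Pfkfb2, with a difference of -1.34 (SE 0.41, adjusted p = 0.0610), followed in size among the higher genes by Slc16a3 at 1.14 (SE 0.38, adjusted p = 0.0798). Without MCM 4 TAM replicates 1, 2 and 3 the counts were 8, 8 and 5 genes, in fits that called 12.1%, 17.2% and 6.81% of all tested genes. Slc16a3 and Pfkm were called in each of these 3 fits, Pfkm at -0.97, -1.02 and -0.31. The comparisons named here share control arrays with those above, so their calls are not separate evidence.

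Neither the transgene nor the number of control injections gave a called difference among these genes. Between MCM 4 ctrl and WT 4 ctrl, 0 of 28 genes were called, against 0.676% of all tested genes, and 1 gene, Hk1, had an unadjusted p under 0.05. Hk1 read a mean of 10.98 ± 0.15 in MCM 4 ctrl (n = 3) and 11.20 ± 0.05 in WT 4 ctrl (n = 6), with no overlap and a log2 change of -0.23 (SE 0.08, adjusted p = 0.144). It was called when groups (-0.23, adjusted p = 0.0413) or arrays (-0.20, adjusted p = 0.0422) were given their own weights, whereas the second Hk1 probe set gave -0.04 (adjusted p = 0.851). Hk2, Gbe1 and Pygm also lay below all WT 4 ctrl arrays, and 12.5% of all tested genes had groups that did not overlap. Between MCM 4 ctrl and MCM 1 ctrl, limma called 0 of 28 genes with 0 at an unadjusted p under 0.05, and 0% of all tested genes.

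Genes that act around these pathways were taken from 5 lists drawn up with earlier results of these data known, and they were read in MCM 4 TAM against MCM 4 ctrl. In that comparison 13.9% of all tested genes were called higher and 9.41% lower. Of 9 further tested genes of glycolysis and glucose uptake, 1 rose and 2 fell. Pfkfb4, another isoform of the bifunctional enzyme, rose by 0.69 (SE 0.15, adjusted p = 0.00315), while Slc2a8, an intracellular hexose carrier, changed by -0.52 (SE 0.12) and Fbp2, the muscle fructose bisphosphatase, by -0.80 (SE 0.25). Of 18 further glycogen genes 2 rose and 4 fell. Ppp1r3a, the muscle subunit that brings protein phosphatase 1 to glycogen, fell by 1.198 (SE 0.15), the largest fall of that list. The phosphoglucomutase relative Pgm5 (-0.53) and the glycogen phosphatase laforin, encoded by Epm2a (-0.65), were lower too, and Calm2, a calmodulin gene (0.36), was higher.

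Entry of pyruvate into mitochondria and carriage of lactate were covered by a list that also held enzymes of neither step. These others were Got1, Got2, Mdh1, Mdh2, Gpd1, Gpd1l and Gpd2. Of the whole list 23 genes were tested. Of these 1 rose and 8 fell, with a median log2 change of -0.31, against 13.9% of all tested genes called higher and 9.41% lower. Pdk3, a kinase that inhibits pyruvate dehydrogenase, rose by 1.28 (SE 0.22, adjusted p = 0.000547). Pdp1, the phosphatase that activates the same complex, changed by -0.80 (SE 0.12), Slc16a7, which encodes the carrier MCT2, by -1.16 (SE 0.23) and Mdh1, cytosolic malate dehydrogenase, by -0.47 (SE 0.12). Against 13.9% of all tested genes called higher and 9.41% lower, side branches of glycolysis gave 3 higher genes of 16 tested and none lower. These were Pgd (0.61, SE 0.15) and Tkt (0.56, SE 0.16), enzymes of the pentose phosphate pathway, and Gfpt1 (0.41, SE 0.13), which opens the hexosamine pathway. The list medians on replicates 1, 2 and 3 were 0.24, 0.05 and 0.58 for the side branches. For the whole list with pyruvate entry they were 0.00, -0.18 and -0.75, so both lists were farthest from 0 on replicate 3.

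Against 13.9% of all tested genes called higher and 9.41% lower, 7 of 26 regulators of glucose use rose and 9 fell, with a median of -0.03. The 4 with the smallest adjusted p were Mef2c, a transcription factor of muscle (-0.66, SE 0.06), Tbc1d4, the Akt substrate that holds back GLUT4 (-1.10, SE 0.16), Ppargc1a, the coactivator PGC-1α (-1.34, SE 0.22), and Prkag2, a regulatory subunit of AMP-activated protein kinase (0.59, SE 0.10). All 4 had adjusted p-values under 0.05 by limma in the fit over all tested genes.

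**Figure D4:**
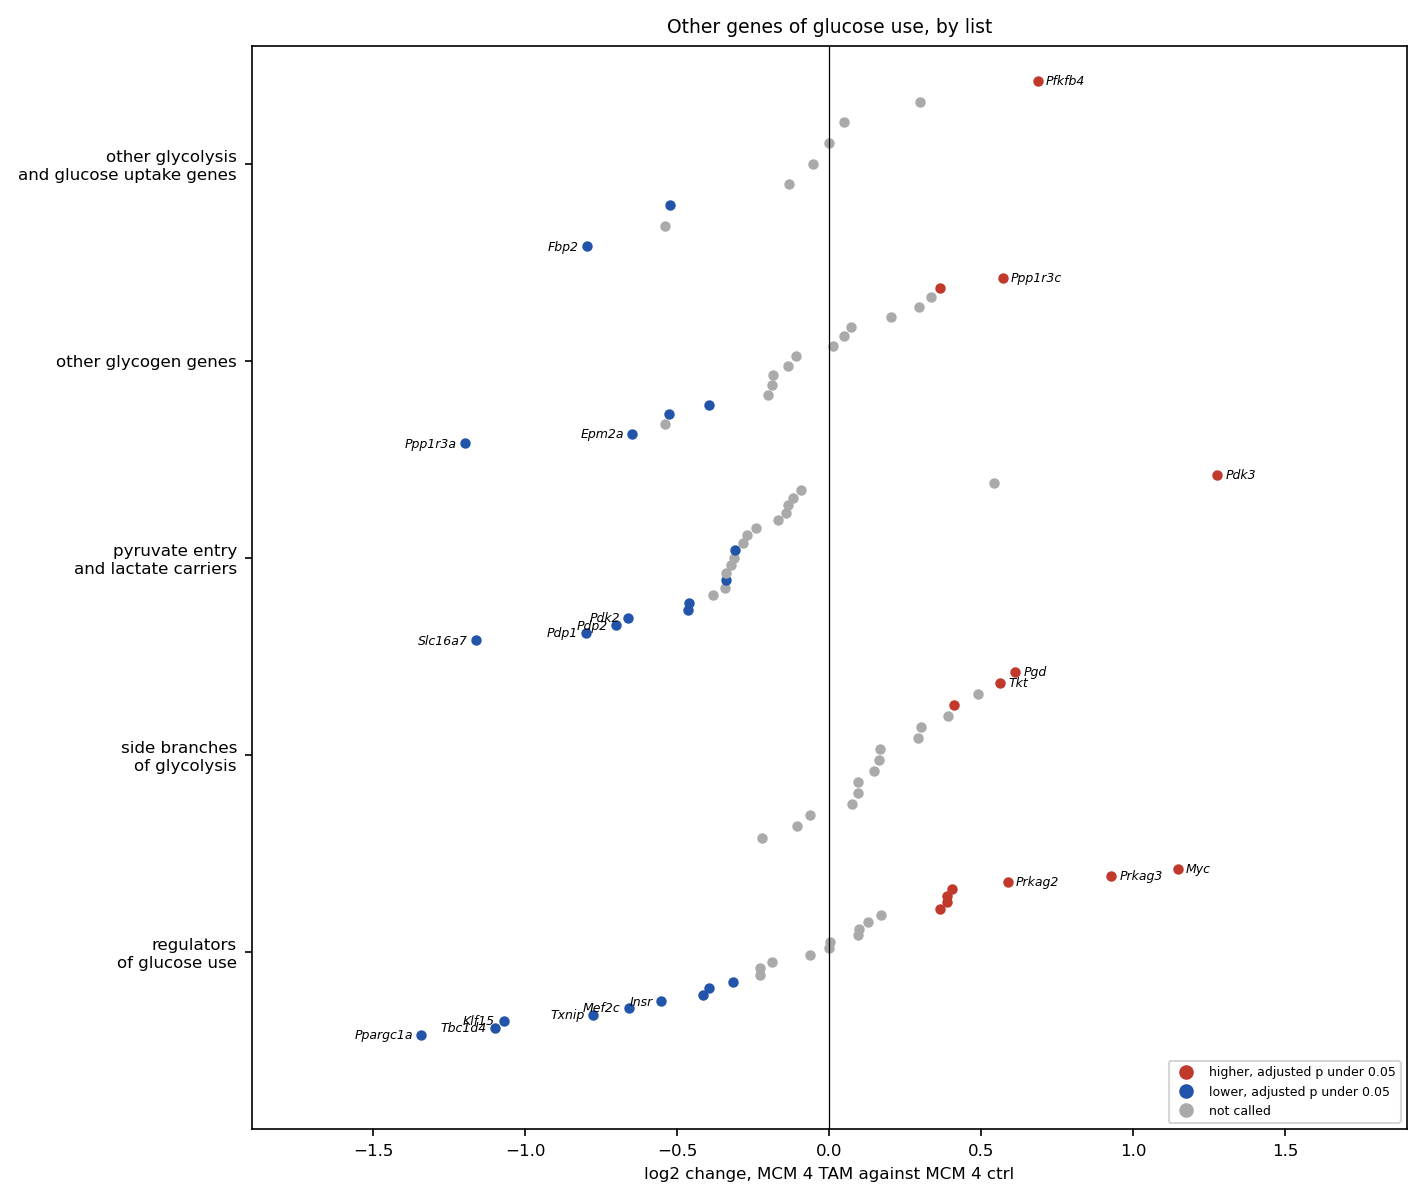
Log2 change between MCM 4 TAM and MCM 4 ctrl of each tested gene in 5 lists around glucose use; each point is a gene, red and blue mark genes called higher and lower, and names stand beside the larger called changes. Called genes of the list of pyruvate entry and lactate carriers, which also holds other enzymes, lie mostly to the left (1 higher and 8 lower of 23 tested). Those of the side branches lie to the right (3 higher and 0 lower of 16 tested). Among all tested genes 13.9% were called higher and 9.41% lower.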

How the data were processed

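The authors deposited 1 table of log2 expression values on 34760 probe sets and 21 arrays, made with RMA per the submitters' processing notes, which give no version. RMA quantile normalises arrays against each other, which removes a shift shared by most genes. Array medians lay between 4.57 and 4.72. Which arrays were run together is not given in the sources used, and 0 columns lacked a sample. The values were used as deposited.

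Probe sets were named through the platform annotation (21640 with 1 gene, 1321 with several, 11799 with no entry), and sets with 1 gene were used. Genes with a log2 value of 5 on at least 3 arrays were tested with limma 3.58.1 in R 4.3.3, in 1 fit of the 6 groups with sex as a covariate over all 21 arrays, with Benjamini-Hochberg adjustment over the 11384 genes in each of 7 comparisons and a threshold of 0.05. A change is called where the adjusted p is under it. The number of arrays limits the precision.

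All 33 genes are named; array values are given for those called in any comparison and some that replicate 3 governs, chosen after their values were seen. From each surrounding list up to 4 called genes with the smallest adjusted p are named. The genes and lists were chosen with earlier results of these data known. Shared replicate numbers showed no clear pairing of the samples outside WT 4 ctrl, which was not examined. Over 30 same-numbered pairs the correlation of deviations ran from -0.39 to 0.19, and 2 exceeded 0.1. With 3 arrays per group this check could miss a pairing. Motifs were searched in the 250 bases before each RefSeq start.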

Additional observations from a re-analysis of the deposited data

Results flagged for a closer look

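In WT 4 ctrl, the group of 6 arrays, 6 of 29 genes had 1 array set apart from the other 5 by a gap that, as a share of the group's range, exceeded Dixon's 95% critical value for 6 arrays; chance sets apart about 1 group in 20. The share of all genes set apart by this rule was not counted. Replicate 3 was the array in 5 of the 6, so these may not be independent of one another. On it Pfkm was low (log2 11.38, others 11.52 to 11.55, gap share 0.791) and Aldoc was low (4.00, others 4.47 to 4.74, gap share 0.637). Pgam1 was high there (8.14, others 7.42 to 7.68, gap share 0.639), as were Ugp2 (9.08, others 8.57 to 8.68, gap share 0.791) and Phka1 (7.82, others 7.39 to 7.52, gap share 0.685). Replicate 1 was low for Pgk1 (10.47, others 10.58 to 10.62, gap share 0.725). The effect of 4 days of tamoxifen differed between MCM and WT for Pfkfb2 (-1.32 log2) and Ugp2 (-0.68), by the limma test of the difference. Without WT 4 ctrl replicate 3 both calls stood. Over all 15 fits that left out 1 array, Pfkfb2 kept its call in 4 and Ugp2 in 12. The same test called 7.98% of all tested genes.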

How the results depend on the processing

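The spread of MCM 4 TAM exceeds that of the other groups, so a fit that shares 1 variance understates it. Under 13 other settings and 6 fits that left out 1 array, no called gene changed direction. The cause of lost calls was not tested beyond what each setting changes. The counts of this section stand without the shares of all tested genes called. They do not show whether lost calls were particular to these genes. Fitting only the arrays compared gave 0 calls in MCM 4 TAM against MCM 4 ctrl (0 muscle forms lower, 0 counterparts higher) and 1 for the MCM minus WT difference. Group variance weights gave 3 (1 counterpart higher), Pfkm and Slc16a3 in place of Pfkfb2 and Ugp2 for MCM minus WT, 1 for MCM 4 ctrl against WT 4 ctrl and 1 for 4 minus 1 days. Array weights kept 8 of the 14 calls of MCM 4 TAM against MCM 4 ctrl, with 2 counterparts higher. They gave 1 for MCM 4 ctrl against WT 4 ctrl, 4 for MCM minus WT and 2 for 4 minus 1 days. Female arrays alone, 2 in each of the 2 groups compared, gave 6 (0 muscle forms lower, 2 counterparts higher). Testing without a filter kept 11 of the 14 calls of MCM 4 TAM against MCM 4 ctrl and gave 1 for MCM minus WT. A filter at log2 7 gave 3 for 4 minus 1 days and left out Slc16a3, and a second quantile normalisation gave 4 for MCM minus WT. With 1 array left out, calls ran from 5 to 16 after 4 days (1 to 5 muscle forms lower, 1 to 5 counterparts higher), from 0 to 8 for MCM minus WT and from 0 to 8 for 4 minus 1 days.

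A replicate block gave 7 calls after 4 days (1 muscle form lower) and 0 for MCM minus WT, though shared numbers showed no clear pairing of the samples. Chosen after seeing the data, a split of the arrays by an unannotated probe set (2 brighter arrays in each MCM group, 0 in WT) gave 1 call for MCM minus WT as a block. Within the brighter arrays 3 genes were called after 4 days (Pfkfb2, Slc16a3 and Ugp2, with 0 muscle forms lower and 1 counterpart higher).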
